A study of Homo sapiens with 8 samples.

Results

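The cytosolic ribosome is built from ribosomal RNA and a set of ribosomal proteins, named RPS in the small (40S) subunit and RPL in the large (60S) subunit, with RPLP0, RPLP1 and RPLP2 forming the stalk of the large subunit that recruits translation factors. A ribosome holds most of them in equal amounts, and their mRNAs are among the most abundant in growing cells. The mRNAs of most of them start with a cytosine followed by a run of pyrimidines, the terminal oligopyrimidine (TOP) motif, through which mTOR signalling controls their translation. A few genes have paralogs with an L or L1 in the symbol, whose products can replace or vary the standard protein.

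Ribosomal protein genes were taken by symbol from the array's annotation, as RPL or RPS with a number, or RPSA, RPLP0, RPLP1 and RPLP2, without pseudogenes and RPS6K kinases. This gave 84 genes with 184 probes: 43 of the large subunit, 31 of the small subunit, 3 of the stalk and 7 paralogs. Of the 84 genes, 83 were tested, within 15317 named genes tested in all. The exception was the paralog RPL39L, whose only probe was well above background on 0 of 8 arrays.

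The cells were HCT-116, a human colorectal carcinoma line grown in DMEM with serum, hybridised to 8 one-colour Agilent arrays, 2 for each of 4 groups. WT was the untreated parental line. WT+NU6102 was WT given 20 µM NU6102, a purine inhibitor of CDK1 and CDK2, for 24 h. CDK2 KO was an untreated CDK2 knockout line obtained from a supplier, and R50 was a resistant line selected and passaged in 50 µM NU6102. The sample titles do not say whether the drug was present when the RNA of R50 was taken. WT and WT+NU6102 were scanned from one slide, CDK2 KO and R50 from another. Slide and group therefore cannot be told apart in CDK2 KO against WT and in R50 against WT. Nothing in the labels says that the 2 arrays of a group came from separate cultures, so p-values measure only the spread between these arrays.

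Values are log2 signals relative to each array's 75th percentile. Each gene is given by its brightest tested probe, and called changed where limma gave an adjusted p (Benjamini-Hochberg, over all 28677 probes tested) under 0.05, with no minimum fold. The 2 arrays of a group differed by a median of 0.03 to 0.07 log2 units over the ribosomal protein genes, and by at most 0.23. CDK2 read −0.78 and −0.77 in WT, −0.46 and −0.43 in WT+NU6102, −1.58 and −1.53 in CDK2 KO, and −1.11 and −1.10 in R50. It was thus lower in CDK2 KO than in WT by 1.72-fold (limma, adjusted p = 0.000271), with signal still well above background on both knockout arrays, and whether its probe lies in the disrupted part is not given. Of 10 colorectal epithelial markers, 8 were well above background on all arrays, while VIL1 was so on none. The summed level of the 9 tested, relative to the 75th percentile, ran between 471.9 and 483.4 in WT, 554.3 and 574.8 in WT+NU6102, 594.3 and 617.4 in CDK2 KO, and 736.4 and 739.9 in R50. Of 8 markers of other cells 5 passed background on every array, while COL1A2 did so on none, and the sum of the 6 tested ran between 3.149 and 3.585 in WT, 2.737 and 2.993 in WT+NU6102, 3.019 and 3.36 in CDK2 KO, and 3.525 and 3.603 in R50. Single markers did not all move with these sums. Against WT, limma called 3 of the 9 epithelial markers higher and 3 lower with NU6102. It called 3 higher and 1 lower in CDK2 KO, and 4 higher and 1 lower in R50. Of the 6 markers of other cells 0 were higher and 2 lower with NU6102. In CDK2 KO 3 were higher and 0 lower, and in R50 1 was higher and 0 lower. The part of the markers in the results was not tested.

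The sequence that marks these genes is at their transcription start. RefSeq (GRCh38.p14) promoters were held for 67 of the 84 genes, and 42 of these (62.7%) had, exactly at the annotated start and on the gene's strand, a C followed by 5 bases each C or T. The same motif stood at the start of 3.02% of all 35116 promoters in the table. A gene with several listed promoters was read at the first only, while the 3.02% is over all listed promoters. It was found in 17 of 24 small subunit genes, 21 of 35 large subunit genes, 3 of 3 stalk genes and 1 of 5 paralogs, against 1 of 67 mitochondrial ribosomal protein genes and 4 of 78 ribosome assembly factors. The following windows, of 15 bases before and 15 from the start, show it in members described below and its lack in most paralogs. Capitals mark the run of pyrimidines that begins at the start, cut at the window's end.
RPS6, chr9:19380222-19380251, minus strand: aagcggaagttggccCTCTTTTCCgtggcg
RPLP0, chr12:120201097-120201126, minus strand: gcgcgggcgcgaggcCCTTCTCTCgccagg
RPL22, chr1:6199581-6199610, minus strand: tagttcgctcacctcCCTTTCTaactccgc
RPL22L1, chr3:170870181-170870210, minus strand: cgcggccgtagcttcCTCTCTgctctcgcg
RPL26, chr17:8383179-8383208, minus strand: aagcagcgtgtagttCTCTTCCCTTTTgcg
RPL26L1, chr5:172958714-172958743, plus strand: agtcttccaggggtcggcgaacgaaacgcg
RPS27, chr1:153990747-153990776, plus strand: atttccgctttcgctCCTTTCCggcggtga
RPS27L, chr15:63157463-63157492, minus strand: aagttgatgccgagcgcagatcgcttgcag
RPL27A, chr11:8682777-8682806, plus strand: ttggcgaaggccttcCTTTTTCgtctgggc
RPS26, chr12:56041903-56041932, plus strand: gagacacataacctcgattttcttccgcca
Both RPL22 and RPL22L1 carry the motif. RPL26 and RPS27 carry it and their paralogs do not. RPS26 has no run at the annotated start in this window, which says nothing of starts used in these cells.

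The first comparison asks what 24 h of NU6102 did to these mRNAs in sensitive cells. Most ribosomal protein genes read slightly lower: 75 of 83 had a log2 fold change below 0, with a median of −0.12, beside a median of 0.04 over all named genes. The test called 21 lower and 2 higher. Over all 15317 genes 24.2% were called lower and 28.9% higher, so the share of ribosomal protein genes called lower, 25.3%, was near the background, and the share called higher, 2.41%, was far under it. Of the 1532 named genes brightest by signal 80 were ribosomal protein genes, and the other 1452 went the other way, with a median of 0.13 and 41.2% called higher. Under median scaling the counts were 12 lower and 3 higher, and under quantile normalization 16 lower and 4 higher. The shares over all named genes under these scalings are not given here. The shifts are small: no ribosomal protein gene reached a log2 fold change of 1, and 65 of 83 lay within 0.2 of 0.

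Calls fell in both subunits. In the small subunit 11 of 31 genes (35.5%) were called lower, and in the large subunit 9 of 43 (20.9%) were lower and 1 higher, beside 24.2% lower over all named genes, and the difference between the subunits was not tested. In the stalk 1 of 3 was lower. RPL29, a large subunit protein, read 7.16 and 7.25 in WT and 6.80 and 6.89 in WT+NU6102. Its arrays did not overlap between these groups, and the log2 fold change was −0.36 (SE 0.06, adjusted p = 0.00403), so that the signal fell by 21.9%. In CDK2 KO and R50 it read between 7.07 and 7.18. RPS18, in the head of the small subunit, read 8.76 and 8.87 in WT and 8.46 and 8.59 with the drug, a change of −0.29 (adjusted p = 0.0176).

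RPLP0, the base of the stalk and a frequent reference gene in quantitative PCR, fell from 8.59 and 8.63 to 8.35 and 8.41, by 0.23 on the log2 scale (adjusted p = 0.0161). RPLP1 and RPLP2, which pair on it, changed by −0.07 and −0.11, and neither was called. RPS6, the substrate of S6 kinase, fell by 0.18 (adjusted p = 0.0420). RPS27, a zinc finger protein of the small subunit, fell by 0.25 (adjusted p = 0.00877), and RPL23 and RPL3, the latter close to the peptidyl transferase centre, fell by 0.23 and 0.22. RPS3, at the mRNA entry channel, fell by 0.16 (adjusted p = 0.0409). RPL5 and RPL11, which bind MDM2 when free of the ribosome, changed by −0.03 (95% interval −0.26 to 0.20) and −0.04 (−0.18 to 0.10). RPS19 and RPS14, both lost or reduced in inherited or acquired anaemias, changed by −0.05 and −0.13, and RPL13A and RPL41 by −0.15 and −0.18. None of these 6 passed the test. Several of the small falls rested on all arrays being used: the calls of RPS6 (−0.22 to −0.14) and RPS3 (−0.18 to −0.13) were lost whichever array was left out, and that of RPL3 (−0.26 to −0.17) without WT replicate 2 or any CDK2 KO or WT+NU6102 array. Those of RPS18 (−0.23 and −0.22) and RPL23 (−0.22 and −0.20) were lost without WT replicate 2 or WT+NU6102 replicate 1, as was that of RPLP0, which was also lost without WT replicate 1 (−0.25 to −0.20). With the mean of all probes of a gene, RPS6 was at −0.07 and RPL23 at −0.10, and neither was called. RPSA, also known as a laminin receptor, RPS4X, an X-linked gene, and RPL7, RPL36A and RPL39 of the large subunit, lay between −0.14 and −0.09 by their brightest probes, which were not called in any comparison. A second, dim RPS4X probe read −3.12 and −3.16 in WT and −3.51 and −4.19 with NU6102, a change of −0.71 (adjusted p = 0.0472), and the mean of both probes changed by −0.41 (adjusted p = 0.0185). The genes with the TOP motif at the annotated start and those without it differed little: over the core genes with a promoter the median was −0.12 in 41 with it and −0.11 in 21 without it.

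The 2 genes that rose with NU6102 were RPL26L1 and RPL27A. RPL26L1, the paralog of RPL26, read 4.82 and 4.90 in WT and 5.60 and 5.66 in WT+NU6102. That was a rise of 0.77 (SE 0.05, adjusted p = 0.000303), or 1.71-fold, while CDK2 KO and R50 lay at 4.66 to 4.71. RPL26 itself, a protein at the exit of the peptide tunnel, read 7.94 and 8.15 in WT and 7.96 and 8.04 with the drug, a change of −0.04 (95% interval −0.25 to 0.16) that was not called. The RPL27A probe rose from −1.93 and −1.92 to −0.94 and −0.99, by 0.96 (SE 0.07, adjusted p = 0.000346). It is the only RPL27A probe and reads far down the transcript, as described below, so that its value is that of this stretch alone. RPS27A, a fusion of ubiquitin and a small subunit protein, had the next highest value, 0.24, which did not pass the test.

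**Figure D1:**
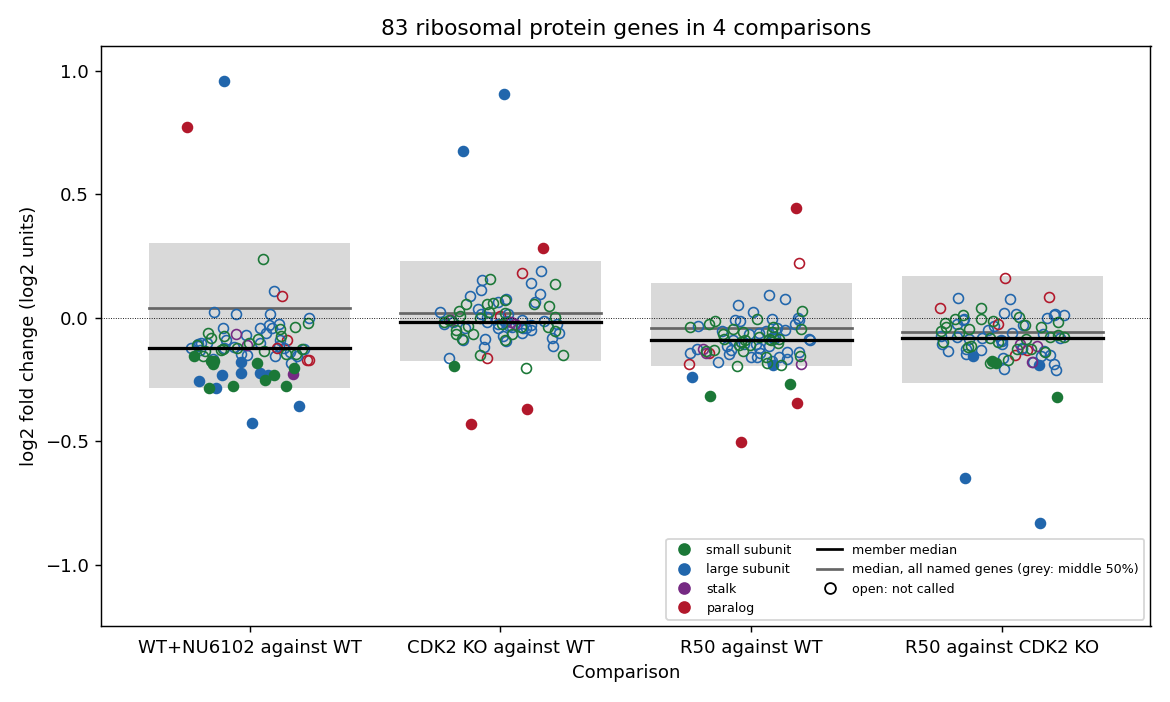
Log2 fold change (vertical axis, log2 units) of the 83 tested ribosomal protein genes in each of the 4 comparisons. Colours give the class, filled points were called at an adjusted p under 0.05, black lines are the medians of these genes, and grey lines and boxes the median and middle 50% of all 15317 named genes; with NU6102 the points gather below 0, apart from RPL27A at 0.96 and RPL26L1 at 0.77.

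Most other genes of ribosome production went up with NU6102. Of 76 mitochondrial ribosomal protein genes, encoded in the nucleus for the ribosome of mitochondria, 55 were called higher and 2 lower with NU6102, with a median of 0.35. MRPL39 (0.99) and MRPL35 (0.87) rose most. Of 93 ribosome assembly factors, the proteins that process ribosomal RNA and assemble subunits, 76 were called higher, with a median of 0.43. SBDS, which acts late in the maturation of the large subunit, rose by 1.30 and DCAF13 by 0.93. Of 20 genes of the RNA polymerase I machinery, which transcribes ribosomal RNA, 12 were called higher, with a median of 0.29. POLR2K, a subunit shared by the 3 nuclear RNA polymerases, rose by 0.92 and TAF1A by 0.77. The other translation genes with TOP mRNAs were divided, 4 of 22 higher and 3 lower, with a median of −0.02. Among them EEF1A1, the elongation factor that brings tRNA, changed by −0.39 and EIF3F by 0.29, both called. These lists were set side by side and the differences between them were not tested.

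**Figure D2:**
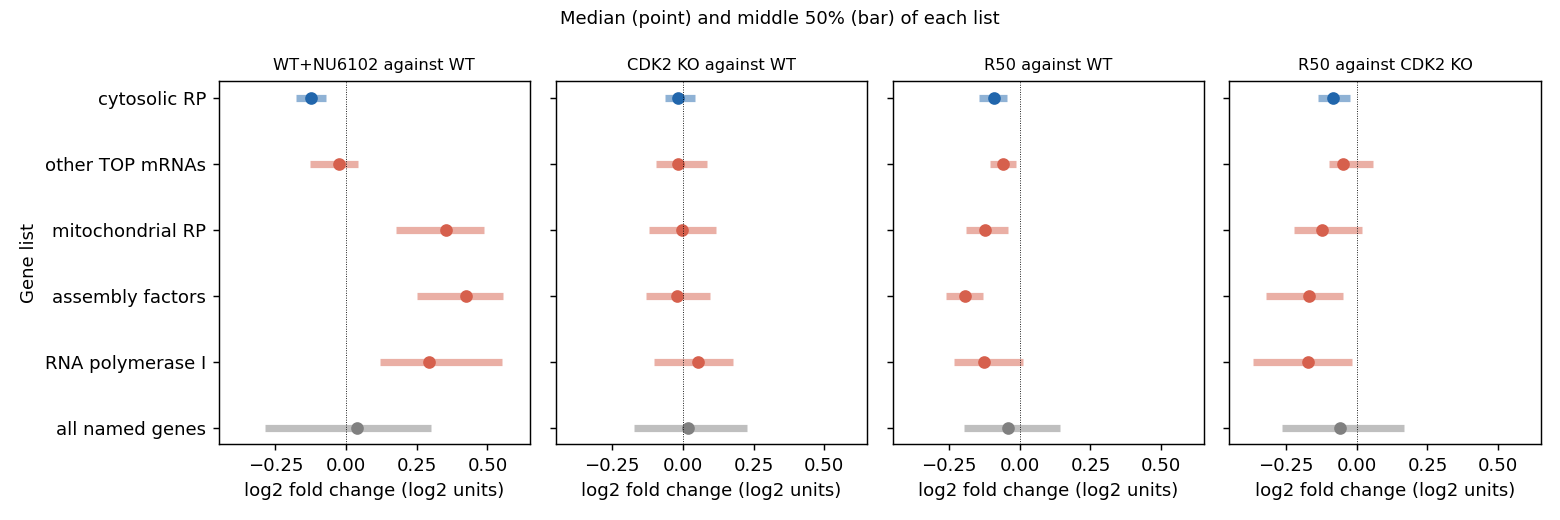
Median (point) and middle 50% (bar) of the log2 fold changes (horizontal axis, log2 units) of cytosolic ribosomal protein (RP) genes, 4 other lists and all named genes, in one panel per comparison. With NU6102 cytosolic RP genes had a median of −0.12 against 0.35 for mitochondrial RP genes and 0.43 for assembly factors, while in R50 against WT the medians of these lists were −0.09, −0.12 and −0.19.

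The second comparison asks what differed in a line that lacks CDK2 from the start. Here the ribosomal protein genes were nearly level with WT. Their median log2 fold change was −0.02, 77 of 83 lay within 0.2 of 0, and 3 were called higher and 3 lower, 3.61% in each direction. Over all named genes 19.2% were called higher and 16.7% lower in CDK2 KO against WT. Slide and group coincide, and this bears on every value of the comparison. The TOP list (3 higher, 3 lower of 22), the mitochondrial ribosomal protein genes (10 and 10 of 76) and the assembly factors (11 and 13 of 93) were also split between directions.

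RPL22, a large subunit protein that also binds RNA outside the ribosome, stood out. It read 4.76 and 4.68 in WT, 4.59 and 4.61 in WT+NU6102, 5.42 and 5.36 in CDK2 KO, and 4.80 and 4.68 in R50. Both knockout arrays lay above all 6 others. The rise was 0.68 (SE 0.06, adjusted p = 0.00133), or 1.60-fold. Within the slide that held both lines R50 was lower than CDK2 KO by 0.65 (adjusted p = 0.00129). RPL22L1, the paralog whose mRNA RPL22 is known to repress, read 7.94 and 8.04 in WT and 7.97 and 8.03 in CDK2 KO, a change of 0.01 (95% interval −0.14 to 0.16). RPL27A was higher by 0.91 (adjusted p = 0.000634), again from its one probe.

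The paralogs held much of the rest. RPL7L1, a nucleolar relative of RPL7 that acts in assembly, read 1.81 and 1.71 in WT against 1.38 and 1.27 in CDK2 KO, a change of −0.43 (adjusted p = 0.00665), and 1.37 and 1.46 in R50, a change of −0.35 (adjusted p = 0.0196). The R50 call was lost without either WT array or R50 replicate 1 (−0.40 to −0.30). With NU6102 RPL7L1 read 1.84 and 1.85. RPL10L, a retrogene copy of RPL10 known mainly from testis, read 6.08 on both WT arrays, 5.95 and 6.03 in WT+NU6102, 5.71 on both CDK2 KO arrays, and 5.57 and 5.59 in R50. It was lower than WT by 0.37 in CDK2 KO (adjusted p = 0.00374) and by 0.50 in R50 (adjusted p = 0.00263). RPL10 itself changed by −0.02 and −0.14 in the same comparisons, neither called. RPL3L, the muscle form of RPL3, was dim, from −3.25 to −2.63 over the 8 arrays. It was higher by 0.28 in CDK2 KO (adjusted p = 0.0382) and by 0.44 in R50 (adjusted p = 0.0141). The first call was lost when any array other than WT replicate 1 was left out, with values from 0.21 to 0.34, and the second without WT replicate 2 or either R50 array, with values from 0.37 to 0.46. RPS27 was lower by 0.20 (adjusted p = 0.0297), a call lost without any WT, CDK2 KO or R50 array (−0.21 to −0.19). Its other probes were at −0.15 and, for a dim one, 0.21, neither called, and the mean of all 3 was −0.05 (adjusted p = 0.498). RPS27L, a p53 target, was at 0.18 in CDK2 KO and 0.22 in R50, not called in either.

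Paralog probes were compared with the probes of their partners, not with the partner's mRNA. How far a paralog's probe reads its partner was therefore not tested. The closest pairs are printed, each 60-base probe with the bases it shares in capitals in the best alignment without gaps. Coordinates are hg19, as given in the files of WT and WT+NU6102.
RPL10L, chr14:47120514-47120573: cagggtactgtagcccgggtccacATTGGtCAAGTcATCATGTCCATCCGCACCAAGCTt
RPL10, chrX:153628866-153628925: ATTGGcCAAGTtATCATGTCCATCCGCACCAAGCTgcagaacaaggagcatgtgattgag
RPS27L, chr15:63447866-63447925: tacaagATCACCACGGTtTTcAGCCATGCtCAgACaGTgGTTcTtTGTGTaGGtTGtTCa
RPS27, chr1:153964053-153964112: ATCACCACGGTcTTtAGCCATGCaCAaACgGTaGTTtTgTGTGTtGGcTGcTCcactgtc
RPL10L and an RPL10 probe overlap by 36 bases, of which 33 are identical, with an unbroken run of 23. RPS27L and RPS27 share 42 of 54 bases, with no run over 11. RPL22L1 and the RPL22 probe on chromosome 14 share 28 of 41 bases, with no run over 7. The best overlaps of the RPL26L1, RPL7L1 and RPL3L probes with those of RPL26, RPL7 and RPL3 held at most 45.5% identical bases. Probes of a pair can lie at different places in their mRNAs, so a low share does not show that the partner's mRNA goes unread. Cytosolic ribosomal protein genes have many processed pseudogenes, so a member's signal can include copies of near-identical sequence, and the share of such signal was not tested. The RPL10L value is uncertain in this way.

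**Figure D3:**
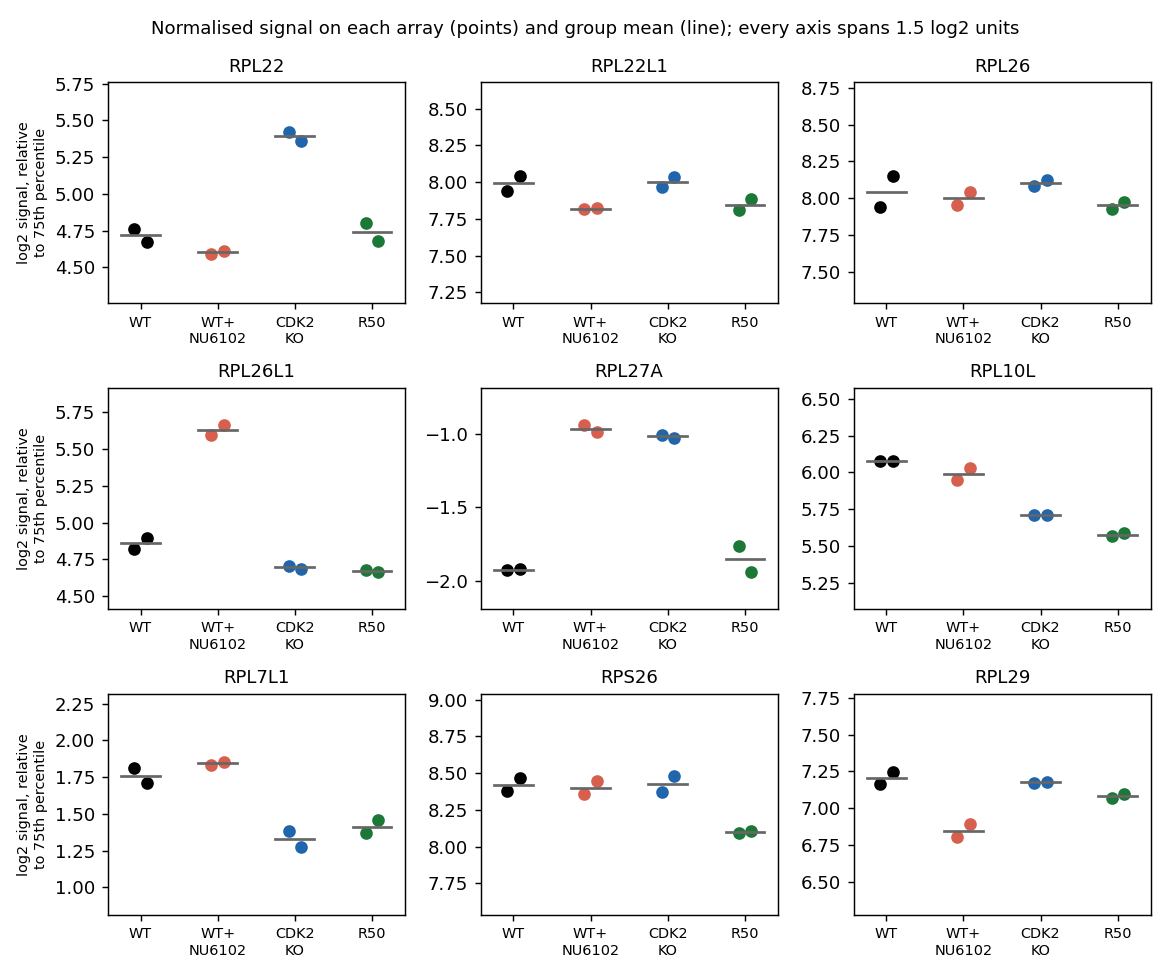
Normalised log2 signal (vertical axis, relative to each array's 75th percentile) on each array of the 4 groups for 9 ribosomal protein genes, with points for arrays and lines for group means. The axes start at different levels and each spans 1.5 log2 units. By their brightest probes, RPL22 is high on both CDK2 KO arrays (5.42 and 5.36), RPL26L1 on both WT+NU6102 arrays, and RPS26 is low on both R50 arrays.

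The third comparison asks about cells that had acquired resistance. In R50 against WT the ribosomal protein genes had a median log2 fold change of −0.09, with 76 of 83 below 0, and 1 called higher and 6 lower, 1.20% and 7.23%. Over all named genes 12.2% were called higher and 15.4% lower, with a median of −0.04, and the other 1452 of the brightest genes had a median of −0.09 as well. Under quantile normalization the median of the ribosomal protein genes was 0, with 2 called in each direction. Among core genes, RPS26, a small subunit protein at the mRNA exit, was the lowest. It read 8.38 and 8.46 in WT and 8.10 and 8.11 in R50, a change of −0.32 (SE 0.06, adjusted p = 0.0231). WT+NU6102 (8.35 and 8.44) and CDK2 KO (8.37 and 8.48) overlapped WT on this probe. A second RPS26 probe was also lower in R50, by 0.25 (adjusted p = 0.0169), and changed by −0.09 in CDK2 KO, not called. The third, a dim one, changed by −0.28 in R50, not called, and was lower in CDK2 KO by 0.64 (adjusted p = 0.00341), so that the probes differ on CDK2 KO. The call for the brightest probe was lost without either WT or either R50 array, with values from −0.27 to −0.36. Named after their values were seen, RPL38, known for the translation of Hox mRNAs, changed by −0.24 (adjusted p = 0.0262) and RPL36 by −0.19 (adjusted p = 0.0430). RPS18 was lower by 0.27 (adjusted p = 0.0403), a call lost without any WT, CDK2 KO or R50 array (−0.32 to −0.21).

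Of the ribosome assembly factors 42 of 93 were called lower in R50 and 1 higher, with a median of −0.19, and differences between the lists were again not tested. Of the mitochondrial ribosomal protein genes 14 of 76 were lower, and of the RNA polymerase I genes 7 of 20. The TOP list gave 2 in each direction, where EIF4B, a factor that aids mRNA unwinding, was higher by 0.34. WT+NU6102 and R50 can be set side by side only as values, since doses, times and slides differ and both are measured against the same WT arrays. RPL26L1, for example, had a log2 fold change of 0.77 in WT+NU6102 and −0.19 in R50, the latter not called.

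R50 and CDK2 KO shared a slide, and a comparison of these lines is therefore free of the slide difference. In it 7 ribosomal protein genes were called lower and 0 higher by limma, with a median of −0.08. The methods' t-test gave 1 lower and 1 higher after Benjamini-Hochberg adjustment, and 35 lower and 2 higher at an unadjusted p under 0.05, where 23.8% of all named genes were lower and 17.2% higher. Leaving out 1 array gave 2 to 4 lower by limma. Over all named genes 23.7% were called lower and 17.2% higher in R50 against CDK2 KO, with a median of −0.06, so the share called lower, 8.43%, was under the background. The falls were led by RPL27A (−0.83, adjusted p = 0.000731), again only by its one dim probe far down the transcript, RPL22 (−0.65) and RPS26 (−0.32, adjusted p = 0.0144). The RPL22 value is of the brightest probe, and the probe given a position on chromosome 14 was called higher, by 0.19. RPS26 was again at 8.10 and 8.11 against 8.37 and 8.48, without overlap, and this call was lost without either R50 array or CDK2 KO replicate 2 (−0.33 to −0.27). The other RPS26 probes were divided, one lower in R50 than in CDK2 KO by 0.16 (adjusted p = 0.0451) and the dim one higher by 0.36 (adjusted p = 0.0200). The mean of the 3 was −0.04 (adjusted p = 0.547), which ends the call. The other 4, named after their values were seen, were RPL38 (−0.19), RPS28 (−0.18), RPS9 (−0.17) and RPL21 (−0.16). Among the assembly factors 39 of 93 were lower and 3 higher, led by RRS1 (−0.63), needed for the large subunit, and NOP56 (−0.59), a core protein of box C/D particles.

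Over the 4 groups together the F-test at an adjusted p under 0.001 found 3 of the 83 ribosomal protein genes, RPL22, RPL26L1 and RPL27A, while 27.4% of all named genes passed it. For RPL27A this holds for the stretch read by its one probe alone. Of the other RPL22 probes, that at base 1066 passed the F-test (adjusted p = 0.000218). The one given a position on chromosome 14 did not (adjusted p = 0.0478).

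Genes with several probes gave a second reading. Of the ribosomal protein genes 47 had at least 2 probes well above background on all arrays, 143 probes in all, and the log2 fold changes of a gene's probes spanned a median of 0.12 with NU6102, 0.13 in CDK2 KO and 0.08 in R50. All 9 RPL21 probes lay between −0.24 and −0.09 with NU6102, and all 4 RPL29 probes were called lower, by 0.32 to 0.39. In CDK2 KO, 9 of the 47 genes had probes over 0.5 apart, against 4 with NU6102 and 3 in R50. The scanner files give the base of the design transcript at which a probe starts. Of 12 probes that begin beyond base 1000, from 11 genes, 8 were called higher in CDK2 KO, with a median of 0.41, against 4 higher and 6 lower of 167 probes up to base 1000, with a median of −0.03. Of all 12900 RefSeq probes beyond that base 21.5% were higher and 17.2% lower, with a median of 0.03. Of all 4185 RefSeq probes up to it 11% were higher and 21.8% lower, with a median of −0.05, so calls higher were also rarer there over all genes. This limit and these probes were chosen after their values were seen, and no test was made of the pattern.

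Probes beyond base 1000 whose readings depart from the rest of their gene, and the only RPL27A probe, are shown by the first 30 of their 60 bases, with the hg19 position of the whole probe.
RPL28, chr19:55903389-55903448, base 4338 of the transcript: gaatggtatcaattcccctgtttctcttgt
RPL37, chr5:40831430-40831489, base 1510: cttcagaacattcacttataaagaaaccct
RPL27A, chr11:8711092-8711151, base 4551: tgctgaaaagtaatattttctctttcgaga
RPL13, chr16:89629585-89629644, base 1019: gaaagacagtccaagccctggataatgctt
RPL22, chr1:6246039-6246098, base 1066: acgtgtaagtaatgtttctacaggtctttg
RPS23, chr5:81569290-81569349, base 3103: aaattgtgaaactccctgttgtgttctgta
RPL10, chrX:153630505-153630564, base 2142: cctgactgcattgttcaccggattataatg
Where these stretches lie relative to exons and untranslated regions was not annotated here, as no hg19 annotation was used.

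The RPL28 probe at base 4338 read 2.99 and 3.18 in WT, 2.41 and 2.37 in WT+NU6102, 4.37 and 4.43 in CDK2 KO, and 3.50 and 3.47 in R50. It rose by 1.32 in CDK2 KO (adjusted p = 0.000264), or 2.50-fold, and fell by 0.69 with NU6102 (adjusted p = 0.00115). The 4 groups did not overlap, while the brightest RPL28 probe changed by −0.09 in each of these comparisons, not called in either. The RPL37 probe at base 1510 was likewise lowest in WT+NU6102 and highest in CDK2 KO, with −1.23 and −1.16 in WT, −1.66 and −1.85 in WT+NU6102, 0.17 and 0.11 in CDK2 KO, and −1.01 and −1.27 in R50. Its change was 1.34 in CDK2 KO (adjusted p = 0.000774) and −0.56 with NU6102 (adjusted p = 0.00908).

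RPL13 at base 1019 (0.59 in CDK2 KO and −0.49 with NU6102) and RPL22 at base 1066 (0.53 and −0.65) also rose in the knockout and fell with the drug, all 4 changes called. Of the 3 RPL22 probes, both that lie at the gene on chromosome 1 were thus higher in CDK2 KO, and the farther one alone was called lower with NU6102. The third, given a position on chromosome 14, read between 4.46 and 4.72 on all arrays, and its change in CDK2 KO of −0.17 was not called. In R50 against CDK2 KO this probe was called higher, by 0.19. RPS23 at base 3103 rose by 0.56 in CDK2 KO and by 0.75 in R50, from 2.41 and 2.48 in WT to 3.17 and 3.23 in R50, and RPL15 at base 1340 by 0.30 and 0.36. The RPL10 probe at base 2142 also fell with NU6102, by 1.04 (adjusted p = 0.00185), from −2.47 and −2.66 to −3.44 and −3.78. It did not rise in the lines, with −0.30 in CDK2 KO and −0.21 in R50, neither called.

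Probes nearer the start departed too. Those of RPL23 at base 353, RPL23A at base 683 and RPS14 at base 961 rose in CDK2 KO by 1.09, 1.09 and 1.23, while the brightest probes of the same genes changed by −0.02, 0.06 and 0.03. The RPL23 base counts along a different design transcript from that of the brightest probe. On the minus strand the probe (chr17:37004149-37004208) lies downstream of the brightest (chr17:37006364-37006423). The RPL23A probe is also downstream of its brightest, which begins at base 459. The RPL23A probe read 2.61 and 2.66 in WT, 3.72 and 3.73 in CDK2 KO, and 2.49 and 2.51 in R50. Within the shared slide its fall from CDK2 KO to R50 was 1.23 (adjusted p = 9.53e-05), and those of the RPL28, RPL37, RPL23 and RPS14 probes were between 0.92 and 1.28, so that the high values of CDK2 KO were seen against an array group of the same slide too. A second probe of RPL28, at base 622, went down in the knockout by 0.61 (adjusted p = 0.00111), and a dim RPS26 probe at base 53 by 0.64. RPS29 at base 630 was high only in R50, at 3.16 and 3.06 against 2.38 to 2.66 elsewhere. In bulk RNA, fewer cells with a transcript and less of it per cell cannot be told apart in any of these values.

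**Figure D4:**
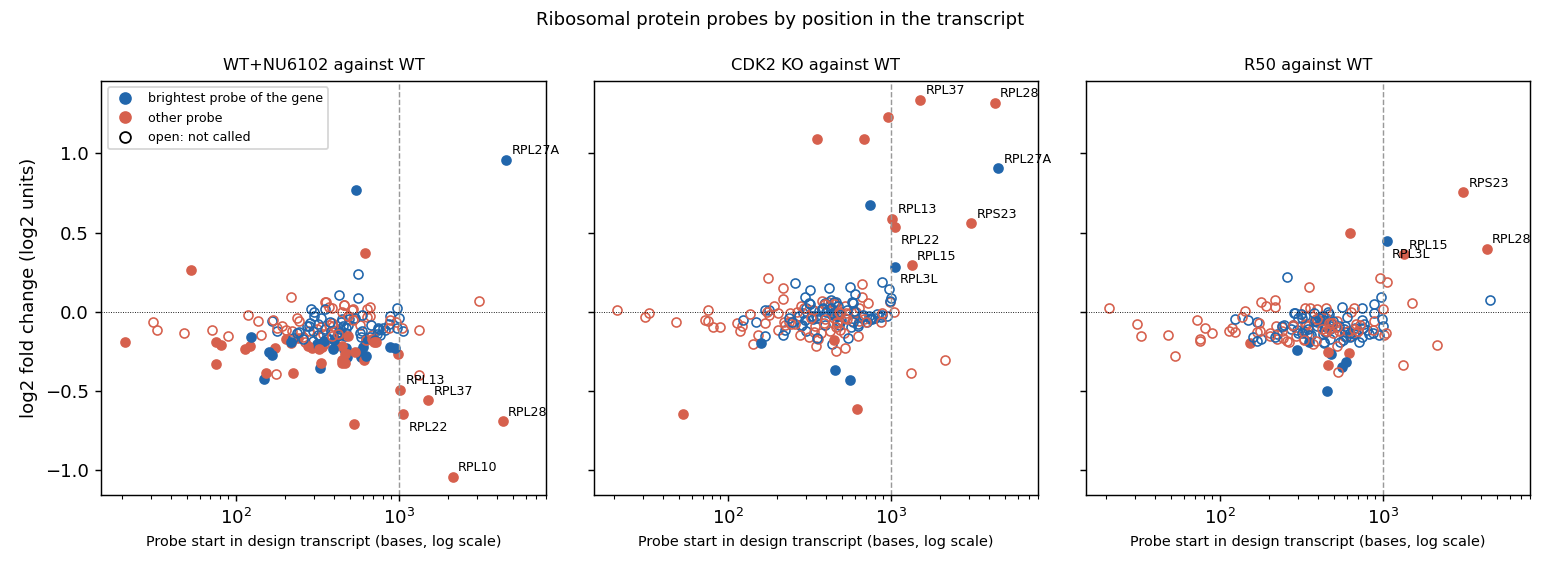
Log2 fold change (vertical axis, log2 units) of the 179 ribosomal protein probes well above background on all 8 arrays, by the base of the design transcript where the probe begins (horizontal axis, log scale), for WT+NU6102, CDK2 KO and R50 against WT. Blue marks the brightest probe of a gene and red the others, filled points were called, and the dashed line is base 1000; in CDK2 KO most points beyond it lie above 0, with RPL37 and RPL28 at 1.34 and 1.32.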

How the data were processed

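RNA of HCT-116 cells was hybridised to 8 one-colour Agilent arrays. The authors deposited background-subtracted scanner intensities, made by Agilent Feature Extraction 11.5.1.1, and a matrix of log2 values for 28719 probes from GeneSpring GX. Differences between arrays in these deposited log2 values correlated at 0.9988 to 0.9996 with the scanner files, and column medians were between −0.02 and 0.02. The direction is thus the same, while these medians do not show whether probes or arrays were centred. The probe filter is not given in the sources used here.

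Files were read in R 4.3.3 with data.table (version 1.17.8). Control and outlier spots were left out, log2 of the processed signal was taken less each array's 75th percentile, and a probe's spots were averaged. The array held 50599 probes, 31 of them with no usable spot on some array. A probe was tested where some group had it well above background on both of its arrays, which left 28677, with 24489 so on all 8. No spot was saturated, and 32376 to 36206 spots per array passed background. The number of arrays limits the precision.

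Limma 3.58.1 was fitted to all 8 arrays, with Benjamini-Hochberg adjustment over all tested probes. Genes are those whose symbol RefSeq (GRCh38.p14) lists, each by its brightest probe. The scripts were tested on simulated data. Intervals are 95% intervals of the fit. Named ribosomal protein genes are those with a role of their own or a paralog, plus the 3 largest rises and falls among those called in each comparison and well above background on all 4 of its arrays, 34 in all, of which 1 is not reported here. Others are said to be named after their values were seen. Probes other than the brightest, the limit at base 1000 and the start motif were also chosen with values known. Other lists give their largest changes and further examples chosen after seeing them. The members and lists were chosen with earlier results of these data known. Alternatives changed the background correction, scaling, filter, prior variance, block, arrays, probe rule, threshold and test.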

Additional observations from a re-analysis of the deposited data

How the results depend on the processing

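With 2 arrays a group, counts of ribosomal protein genes called depended on the settings more than the sizes of the changes did. The share of all named genes called also varies with the setting and is mostly not given here. These counts therefore do not show whether ribosomal protein genes were called more or less often than other genes. Leaving out 1 array at a time gave 7 to 15 lower with NU6102, 0 to 1 higher and 1 to 5 lower in R50 against WT, 2 to 4 lower in R50 against CDK2 KO, and 0 to 1 past the F-test, with medians from −0.161 to −0.085 with NU6102 and from −0.127 to −0.0656 in R50 against WT. The cause was not tested. Normexp background correction gave 2 higher in R50 against WT and 6 past the F-test. Quantile normalization gave medians of −0.0596 with NU6102, 0 in R50 against WT and 0 in R50 against CDK2 KO, and counts of 4 higher with NU6102, 5 lower in CDK2 KO, 2 higher and 2 lower in R50 against WT, and 3 lower in R50 against CDK2 KO. Median scaling gave 12 lower and a median of −0.0759 with NU6102, and 6 lower in CDK2 KO. Without a filter on dim probes, which tests more probes, 5 were lower with NU6102, 0 higher and 1 lower in R50 against WT, 2 lower in R50 against CDK2 KO, and 0 past the F-test. Probes well above background on all 8 arrays gave 5 lower in CDK2 KO, and 2 higher and 11 lower in R50 against WT. The authors' log2 values gave 5 lower in CDK2 KO and 2 higher in R50 against WT. A trended prior variance gave 5 higher and 8 lower in CDK2 KO, 2 higher and 20 lower in R50 against WT, 19 lower in R50 against CDK2 KO, and 9 past the F-test. The fit over only the 2 groups compared gave 8 lower with NU6102, 0 higher and 1 lower in R50 against WT, and 3 lower in R50 against CDK2 KO. The mean of all probes of a gene gave 4 higher and 36 lower with NU6102, 11 higher and 8 lower in CDK2 KO, 3 higher and 15 lower in R50 against WT, 2 higher and 16 lower in R50 against CDK2 KO, and 7 past the F-test, and turned RPL23 to 0.33 and RPS26 to −0.24 in CDK2 KO. A minimum absolute log2 fold change of 1 left 0 in every comparison, as no change was that large. At an adjusted p under 0.01, 7 were lower with NU6102, 0 higher and 1 lower in R50 against WT, and 2 lower in R50 against CDK2 KO. The methods' ANOVA left 1. The methods' t-test with Benjamini-Hochberg adjustment gave 1 lower with NU6102, 1 higher and 1 lower in CDK2 KO, 0 higher and 0 lower in R50 against WT, and 1 higher and 1 lower in R50 against CDK2 KO. Unadjusted, it gave 7 higher and 7 lower in CDK2 KO, 2 higher and 17 lower in R50 against WT, and 2 higher and 35 lower in R50 against CDK2 KO. In the last of these 17.2% of all named genes were higher and 23.8% lower.

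The replicate numbers are shared between groups, but the deviations of same-numbered arrays correlated only from −0.03 to 0.05, so the numbers were not taken to pair the arrays. With the replicate number as a block 3 were lower in R50 against CDK2 KO and 1 passed the F-test. The slide as a random block gave no value of its own, since the groups already hold the slide, and the 2 comparisons across slides have no within-slide value.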
